A study of Mus musculus with 2 samples.

Results

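Lungs of tumor-bearing mice were profiled by single-cell RNA-seq, and the 8 genes described here are S100a8, S100a9, S100a4, S100a6, S100a10, S100a11, Saa3 and Lrg1. All 8 were found by symbol among the 32285 genes of the count matrices. The mice were 12-week-old female BALB/cJ animals that had received 100000 cells of 4T1, a mouse mammary carcinoma line that spreads to the lung (in the study's methods the reporter derivative 4T1-luc2-tdTomato). One group was given intravenous saline and the other intravenous PLG nanoparticles (NPs, particles of poly(lactide-co-glycolide)), every 3 days from day 1 after inoculation, and lungs were taken on day 14. Both groups carried tumors, and there was no tumor-free group. Lungs of 4 mice were pooled per group according to the sample labels (the study's methods give another number), so each group was 1 library and differences between mice could not be measured. No tests were made, and every interval is a 95% interval that covers counting error only.

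S100 proteins are small calcium-binding proteins. S100a8 and S100a9 form the heterodimer calprotectin, an abundant cytosolic protein of neutrophils that is released as an alarmin and signals through Toll-like receptor 4, and Saa3 is a serum amyloid A protein that is made outside the liver in inflammation. Both are known from work on the pre-metastatic lung, where they have been linked to the recruitment of myeloid cells. Lrg1 (leucine-rich alpha-2-glycoprotein) is secreted by neutrophils and by inflamed endothelium and modulates TGF-beta signaling in vessels.

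The 6 S100 genes lie on chromosome 3 (GRCm38): S100a4 at chr3:90603771-90606045, S100a6 at chr3:90612882-90624181, S100a8 at chr3:90668978-90670035, S100a9 at chr3:90692632-90695721, S100a11 at chr3:93520488-93526287 and S100a10 at chr3:93555080-93564643. S100a9 is on the minus strand and the other S100 genes are on the plus strand. Saa3 (chr7:46711998-46715700) and Lrg1 (chr17:56119678-56122001) are both on the minus strand.

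RefSeq promoter sequence (GRCm38.p6) was at hand for 7 of the 8 genes. The stretches for S100a8, S100a9 and Saa3 are shown because the levels of the first pair followed each other closely over cell classes and neutrophil clusters, and those of Saa3 did not. Each holds 150 bases before the first annotated exon, 5′ to 3′ on the gene's own strand, at chr3:90668828-90668977 (plus strand), chr3:90695722-90695871 (minus strand) and chr7:46715701-46715850 (minus strand), with matches to the C/EBP-type motif TTNNGNAA in capitals. The stretches end 93, 0 and 24 bases before the RefSeq start, so some matches counted below lie outside them.
S100a8: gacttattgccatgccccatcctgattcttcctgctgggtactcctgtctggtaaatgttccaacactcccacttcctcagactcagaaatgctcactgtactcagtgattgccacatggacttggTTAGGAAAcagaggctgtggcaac
S100a9: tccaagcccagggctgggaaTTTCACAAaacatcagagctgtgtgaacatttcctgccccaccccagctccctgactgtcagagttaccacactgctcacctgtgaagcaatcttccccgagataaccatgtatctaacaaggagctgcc
Saa3: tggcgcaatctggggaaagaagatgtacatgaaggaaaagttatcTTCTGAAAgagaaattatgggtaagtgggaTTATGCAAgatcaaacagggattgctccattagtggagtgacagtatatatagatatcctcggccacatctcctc

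Over the whole 250 bases before the RefSeq start, on either strand, the motif occurred 4 times for Saa3, 2 times for S100a9 and 1 time for S100a8. Of 32851 promoters, 36.8% held it at least once, 10.9% at least 2 times and 0.591% at least 4 times. TATAAA was found for S100a8 and S100a4 (12.4% of promoters) and the AP-1-type motif TGANTCA for S100a11, with 2 matches (6.75% of promoters). The S100a8 TATAAA match, at position −30 from the RefSeq start, lies outside the stretch shown. The STAT-type motif TTCNNNGAA, which was in 7.02% of promoters, was found for none of the 7 genes in these windows. A motif match is a description of the letters and not evidence of binding.

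A barcode was taken as a cell if it had 500 to 5000 genes and less than 7.5% of its UMIs from mitochondrial genes (UMIs are unique molecular identifiers, which count each captured transcript once). This left 8662 saline cells with a median of 6474.5 UMIs and 8333 NP cells with a median of 6008. The libraries shared 21 cell barcodes. Clustering was done without the 8 genes, and clusters were named from marker genes, so each class name below means cells that resemble that type. Of 33 clusters, 9 were neutrophil-like, and the 16 classes with at least 50 cells over both libraries were compared. No cluster was named as conventional dendritic cells, so cells of that type may lie in other classes. Mature neutrophils numbered 5037 in saline and 2733 in NP, immature neutrophils 553 and 346, classical monocytes 720 and 1128, and non-classical monocytes 101 and 404. A level is given as CPM, the UMIs of a gene per 1000000 UMIs of the class. Barcodes with under 50 UMIs, which hold free RNA rather than cells, served as the reference for RNA from broken cells. In that free RNA S100a8 and S100a9 together were 19.5% of saline UMIs and 11.5% of NP UMIs.

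S100a8 and S100a9 were dominated by neutrophils. In immature neutrophils, led by the granule genes Camp, Ngp and Ltf, S100a8 was at 191703 CPM with saline and 209492 with NP. Mature neutrophils held 111951 and 113734 CPM. S100a9 was at 206943 and 208204 CPM in immature neutrophils and at 139487 and 138910 in mature ones. Together the pair took up 39.9% of all UMIs in saline immature neutrophils and 41.8% in NP ones, and 25.1% and 25.3% in mature cells. Nearly every mature neutrophil carried S100a8, at 99.8% of saline and 99.4% of NP cells after each cell was thinned to 1000 UMIs, and the median cell had 81 and 80 S100a8 UMIs per 1000.

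Every other class was far below. Saline classical monocytes had 9029 S100a8 CPM, T cells 7502, endothelial cells 4285 and B cells 794. In the NP library these levels were 5082, 4637, 1329 and 392. The B cell levels were 0.82% and 0.65% of the free RNA level, and 51.9% of saline and 30.6% of NP B cells had at least 1 S100a8 UMI after thinning, so that a share of this size was background for a cell type that does not make the gene. After the same thinning, 360 of 720 saline and 413 of 1128 NP classical monocytes had an S100a8 UMI. Their share was below that of B cells in the saline library and above it in the NP library. The free RNA share of UMIs, estimated from lung secretory genes, was 1.617% and 1.364% in B cells. In classical monocytes it was 0.654% and 0.606%. Background per thinned cell thus differed between the 2 classes, so the shares of cells cannot tell whether classical monocytes stood above background. The order of the classes below neutrophils was only partly resolved, with 4 of 15 neighboring pairs overlapping in their intervals in each library.

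**Figure D1:**
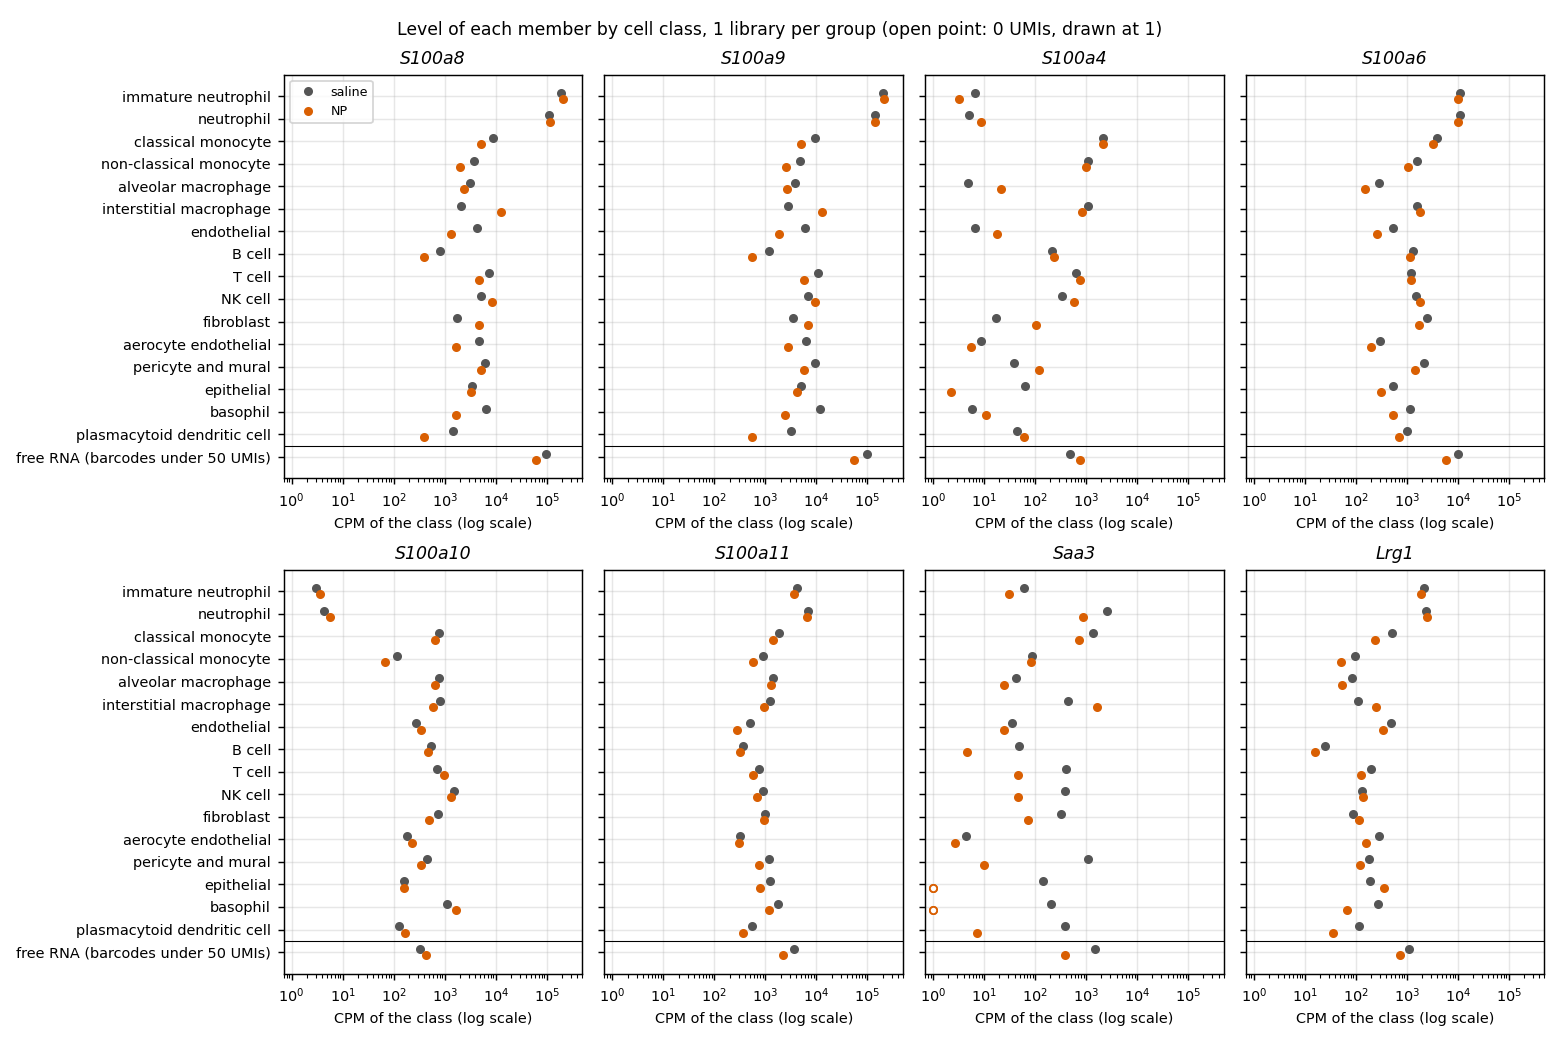
CPM of each of the 8 genes (log axis) in 16 cell classes and, below the line, in free RNA, with 1 point per library (saline grey, NP orange). S100a8, S100a9, S100a6, S100a11 and Lrg1 were highest in neutrophils, whereas S100a4 and S100a10 were at 3.0 to 8.6 CPM there. Saa3 was highest in mature neutrophils in the saline library and in interstitial macrophages in the NP library. Without the 1 NP macrophage that held the most Saa3 UMIs, the macrophage level was below the 890 CPM of NP mature neutrophils. The saline Saa3 level of pericyte and mural cells (1074 CPM) came almost wholly from 1 cell, which held 97.8% of the UMIs.

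Outside neutrophils, S100a8 in most classes sat in a few cells. Cells were set aside in which 12 other neutrophil genes (such as Retnlg, Csf3r, Cxcr2 and Mmp8) took at least 0.5% of UMIs, a limit chosen after the data were seen. That removed 55 of 720 saline and 34 of 1128 NP classical monocytes, which held 75.4% and 72.6% of the S100a8 UMIs of the class. The remaining classical monocytes had 2493 and 1464 S100a8 CPM. Among T cells the 29 saline and 13 NP cells removed held 88.1% and 87.2% of S100a8, and the class fell to 1003 and 629 CPM. The cells removed held most of the S100a8 UMIs in 23 of 28 combinations of class and library. The exceptions were B cells in both libraries, saline fibroblasts (14.9%), NP aerocytes (32.8%) and NP plasmacytoid dendritic cells. Across the other 13 non-neutrophil classes, the level in the remaining cells lay between 0.47% and 1.55% of the free RNA level in the saline library and between 0.48% and 2.00% in the NP library. Classical monocytes stood at 2.57% and 2.42%, above all of these in both libraries.

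The ratio of S100a8 to S100a9 UMIs was compared between the same classes. It was 0.803 (0.802 to 0.804) in saline and 0.819 (0.817 to 0.820) in NP mature neutrophils, and 0.926 (0.925 to 0.928) and 1.01 (1.00 to 1.01) in immature ones. Free RNA had 0.990 (0.986 to 0.994) and 1.12 (1.12 to 1.13). In classical monocytes without the cells that carried neutrophil genes the ratio was 1.20 (1.18 to 1.23) and 1.13 (1.11 to 1.15), against 0.762 (0.718 to 0.808) and 0.714 (0.663 to 0.768) in B cells treated the same way. S100a8 and S100a9 were thus in a different proportion in classical monocytes than in B cells, beyond counting error. Against free RNA, the classical monocyte ratio was higher in the saline library, whereas in the NP library the intervals overlapped.

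**Figure D2:**
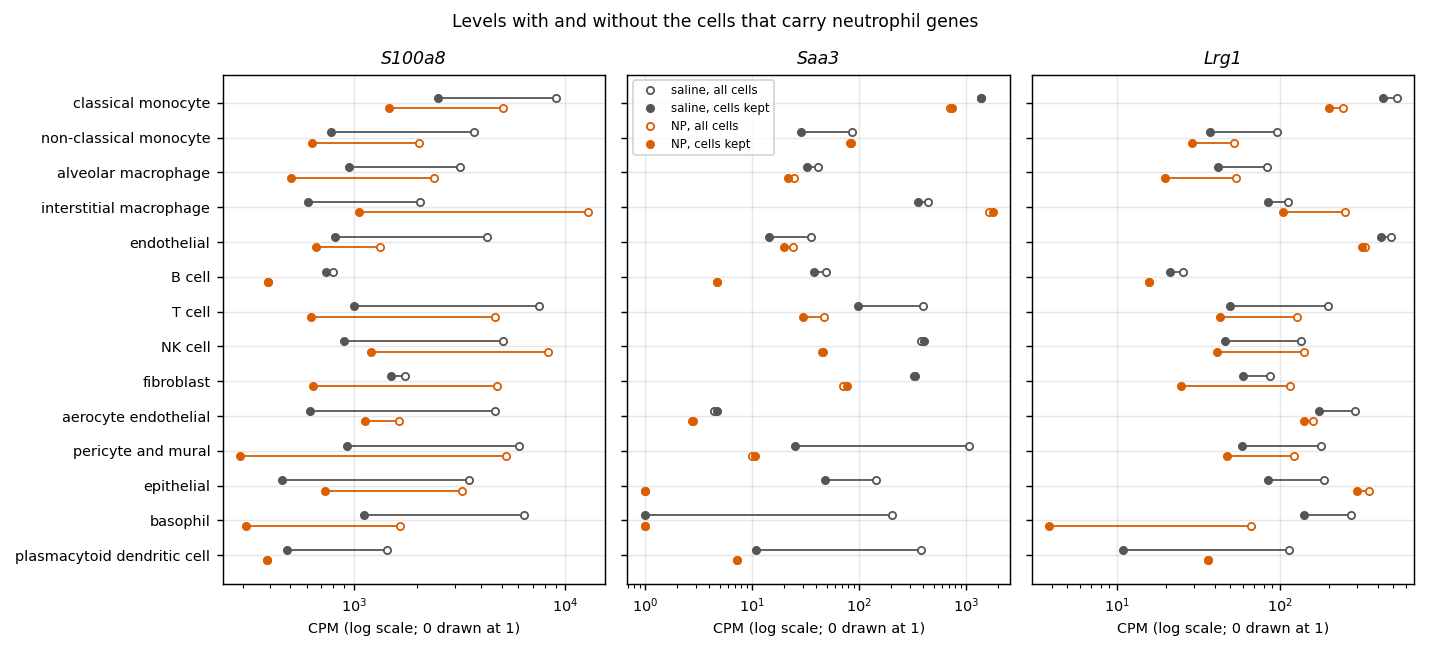
CPM (log axis) of S100a8, Saa3 and Lrg1 in the non-neutrophil classes with all cells (open points) and without cells in which 12 neutrophil genes took at least 0.5% of UMIs (filled points), for the saline (grey) and NP (orange) libraries. S100a8 dropped in every class except NP B cells and NP plasmacytoid dendritic cells, where no cell was removed, whereas Saa3 in classical monocytes (1389 to 1385 CPM in saline) hardly moved.

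Between the libraries, the 8 genes were compared as log2 ratios of CPM, NP over saline, for genes with at least 200 UMIs in a class. In neutrophils, mature and immature pooled, the median ratio of the 8 genes was 0.01, and the median of all 7250 genes tested was −0.13. One of the 8 was at least 2-fold lower, where 0.634% of all genes were, and none was at least 2-fold higher, where 1.81% were. The gene that was lower was Saa3. S100a8 rose from 133249 to 144760 CPM (log2 ratio 0.12, 0.12 to 0.12) and S100a9 from 157501 to 161362 (0.03, 0.03 to 0.04). S100a6 went from 11229 to 10338 CPM (−0.12) and S100a11 from 6088 to 5531 (−0.14), close to the median of all genes. Lrg1 was at 2333 and 2306 CPM (−0.02). S100a4 (5.5 and 6.9 CPM, 0.31, 0.02 to 0.60) and S100a10 (4.0 and 5.0 CPM, 0.33, −0.01 to 0.66) rested on few UMIs. They stood at 1.133% and 0.896% (S100a4) and 1.198% and 1.168% (S100a10) of their free RNA levels. The free RNA share of neutrophil UMIs, estimated from lung secretory genes, was 1.233% and 1.066%, so both genes were at background level there. The median of 0.01 over the 8 genes includes these 2, whose ratios lie above it. Relative to the all-gene median, S100a8, S100a9 and Lrg1 were at 0.25, 0.17 and 0.12, so Lrg1 changed sign with this scaling.

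**Figure D3:**
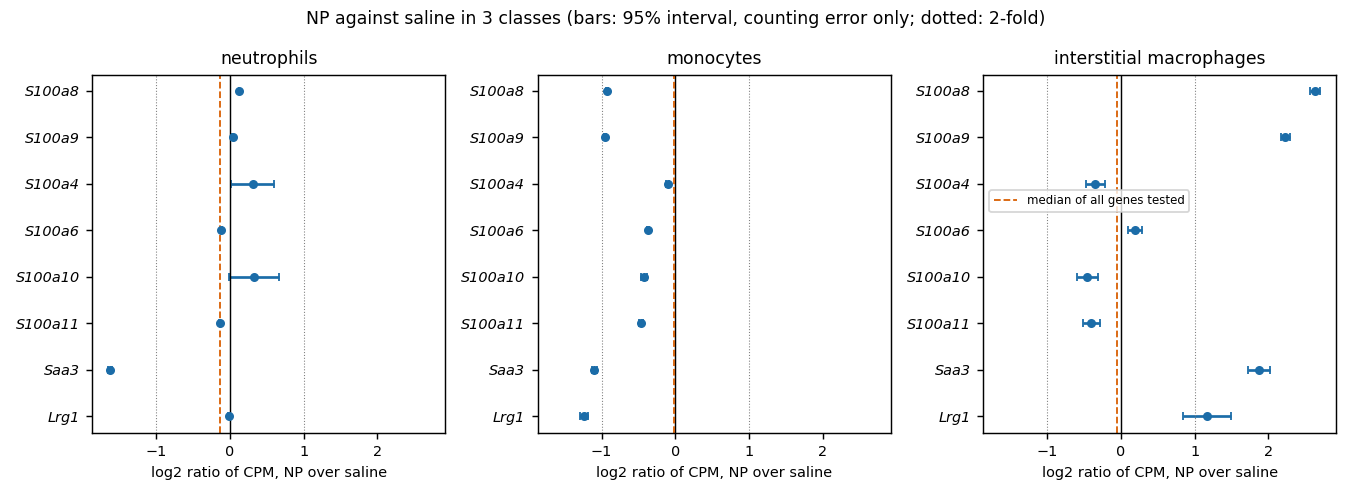
Log2 ratio of CPM, NP over saline, of the 8 genes in neutrophils, monocytes and interstitial macrophages, with 95% intervals for counting error only, the median of all genes tested (dashed) and the 2-fold limits (dotted). Saa3 was at −1.62 in neutrophils and −1.10 in monocytes, whereas it was at 1.87 in interstitial macrophages, where 1 cell in each library held 55.0% and 50.5% of the Saa3 UMIs.

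Within the 9 neutrophil clusters the S100a8 difference was larger than in the pool. S100a8 was higher in the NP library in 9 of 9 clusters, by log2 ratios of 0.13 to 0.40 with a median of 0.24, although all mature neutrophils pooled gave 0.02. The largest difference was in the cluster led by Il1b, Ccrl2 and Csf3r, which held 35525 S100a8 CPM in saline and 46837 in NP (0.40, 0.39 to 0.41). The larger of 2 clusters led by Camp and Ngp had 193841 and 212632 CPM (0.13, 0.13 to 0.14). The mix of clusters also differed between the libraries. The interferon-type cluster led by Isg15, low in S100a8, grew from 74 saline to 826 NP cells, and the cluster led by Cstdc5 and Stfa3, high in S100a8, went from 746 to 70 cells. When both libraries were given the saline mix of clusters, weighted by cell numbers, S100a8 was at 102377 and 121658 CPM, a log2 ratio of 0.25. The pooled values weight clusters by UMIs instead, and with equal weight per cell the S100a8 ratio in neutrophils was 0.08. S100a9 was higher in 8 of 9 clusters (−0.003 to 0.20). S100a6, a relative that is common in many cell types, was higher in 5 of 9 clusters and S100a11 in 4 of 9, and with the saline mix their ratios were 0.13 and 0.02.

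Saa3 ran against S100a8 among these clusters. In the saline library Saa3 was highest, at 5457 CPM, in the Il1b cluster where S100a8 was lowest, and it was at 64.6 CPM in the larger Camp cluster, where S100a8 was highest. Over the 9 clusters the Pearson correlation of log2(CPM + 1) was −0.66 in saline and −0.75 in NP for S100a8 with Saa3. It was 0.98 and 0.97 for S100a8 with S100a9. For Saa3 with Lrg1 it was 0.918 and 0.936. The clusters of a library share its depth and its free RNA, so these values are descriptions. Over single cells, thinned to equal depth, the opposition was weaker. The Spearman correlation of S100a8 with Saa3 was −0.215 in saline and −0.178 in NP mature neutrophils, and −0.055 and −0.114 in immature ones. In classical monocytes it was 0.154 and 0.089. The single-cell correlation of Saa3 with Lrg1 was 0.007 and −0.022 in mature and −0.034 and 0.047 in immature neutrophils. Thus these 2 genes did not follow each other from cell to cell in neutrophils. In classical monocytes their correlation was 0.227 and 0.14.

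Of the 8 genes, Saa3 differed most between the libraries in neutrophils, at 1884 CPM in saline and 612 in NP (log2 ratio −1.62, −1.65 to −1.60). It was lower in NP in all 8 neutrophil clusters with at least 200 Saa3 UMIs, by log2 ratios from −0.31 to −3.79. The smallest difference was in the interferon-type cluster, with 2072 and 1666 CPM. In the cluster led by Cstdc5 and Stfa3, Saa3 was at 850 and 61.3 CPM. The share of cells with Saa3 differed more than its level in those cells. After thinning to 1000 UMIs, 29.6% of saline mature neutrophils (28.3% to 30.9%) and 11.7% of NP ones (10.5% to 12.9%) had a Saa3 UMI, and these cells held a mean of 11.4 and 10.1 Saa3 UMIs per 1000. Without thinning the shares were 40.1% and 16.3%. In B cells, which should lack the gene, the thinned shares were 2.34% and 0.337%, with median depths of 4338.5 and 4436 UMIs against 5496 and 4840 in mature neutrophils. Saa3 in free RNA fell as well, from 1497 to 388 CPM (−1.95, −2.02 to −1.87).

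**Figure D4:**
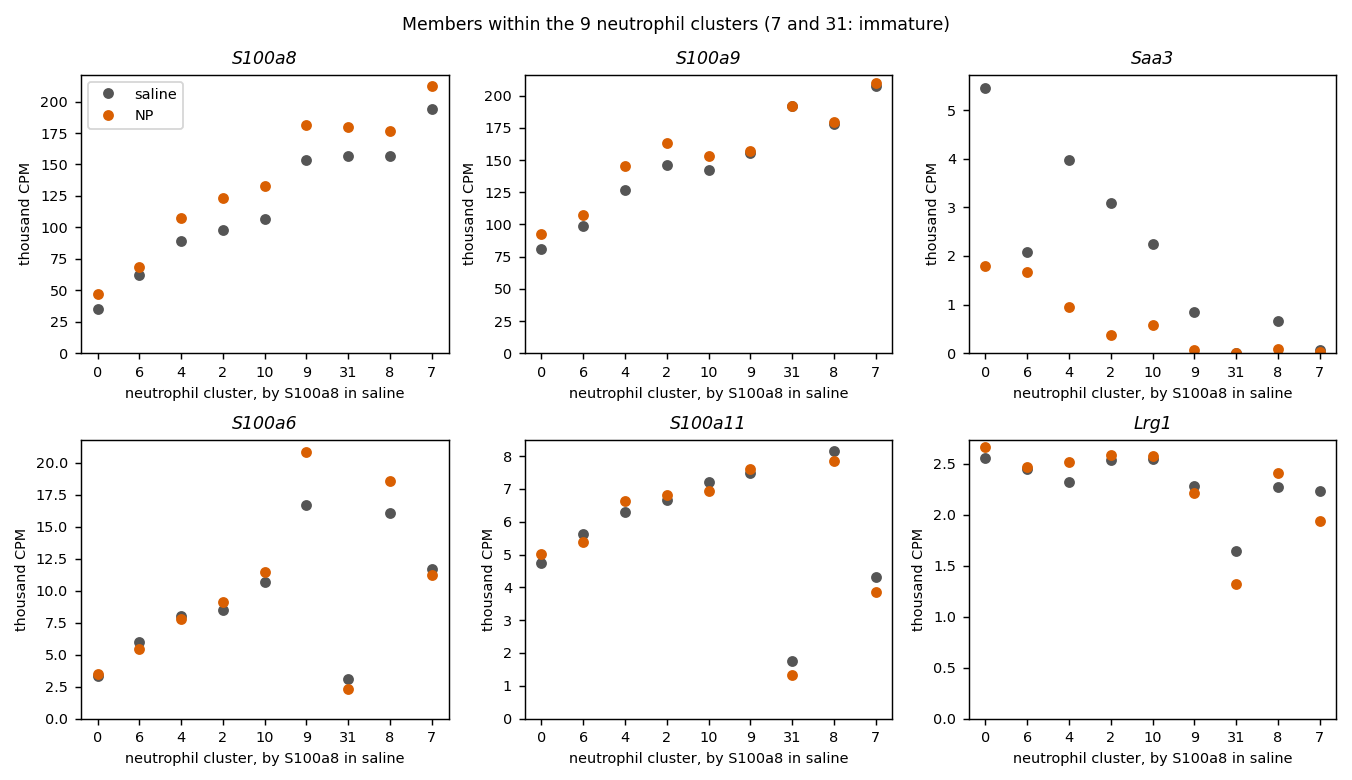
Levels (in units of 1000 CPM, linear axes from 0) of 6 of the genes in the 9 neutrophil clusters, ordered by S100a8 in the saline library, with 1 point per library (saline grey, NP orange). Cluster 0 was led by Il1b, 6 by Isg15, 9 by Cstdc5, and 7 and 31 by Camp. S100a8 was higher in NP in every cluster, and Saa3 was lower in NP in all 8 clusters in which it had at least 200 UMIs.

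Lrg1 varied little among neutrophil clusters. Its level lay between 1648 and 2555 CPM over the 9 saline clusters and between 1321 and 2667 over the NP clusters, and 85.2% and 85.4% of mature neutrophils had an Lrg1 UMI after thinning. The log2 ratio was 0.08 (0.06 to 0.09) in mature and −0.23 (−0.26 to −0.20) in immature neutrophils.

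Monocytes, classical and non-classical pooled, had a lower level of all 8 genes in the NP library. The median log2 ratio of the 8 was −0.70, beside a median of −0.02 over the 8223 genes tested. Saa3 and Lrg1 were at least 2-fold lower, so 2 of 8 against 0.462% of all genes, and 0 of 8 were at least 2-fold higher, against 1.67%. Saa3 was at 1313 CPM in saline and 613 in NP (−1.10, −1.13 to −1.07), and Lrg1 at 501 and 213 (−1.23, −1.29 to −1.18). S100a8 (8719 and 4583 CPM, −0.93) and S100a9 (9085 and 4698 CPM, −0.95) came close to the 2-fold limit. In the same cells, the summed level of 17 neutrophil marker genes went from 3030 to 1870 CPM in classical and from 1729 to 1133 CPM in non-classical monocytes. Without the cells that carried neutrophil genes (59 of 821 saline, 41 of 1532 NP), S100a8 was at 2387 and 1325 CPM (−0.85, −0.87 to −0.83), S100a9 at 2013 and 1238 (−0.70), Saa3 at 1302 and 632 (−1.04), Lrg1 at 409 and 171 (−1.26), and the median of the 8 genes was −0.59. All 8 ratios in monocytes remained below 0 without those cells. In free RNA, S100a8 also went from 97118 to 60576 CPM and S100a9 from 98090 to 53950. In B cells their ratios were −1.02 and −1.10, so the S100a8 and S100a9 ratios given here for monocytes were no lower than in B cells. The number of genes at least 2-fold lower in monocytes ranged from 1 to 4 over the processing alternatives. Taken separately, 1 of 8 genes (Lrg1, −1.11) was 2-fold lower in classical monocytes, where Saa3 was at −0.95, and none of 8 in non-classical monocytes, where Saa3 was at 86.2 and 83.5 CPM (−0.05, −0.44 to 0.37). Non-classical cells, low in Saa3, were 101 of 821 saline and 404 of 1532 NP monocytes, so the pooled ratios also carry this change in mix.

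The Saa3 ratios of the 2 classical monocyte clusters had opposite signs. In the larger one, led by Ccr2, Ms4a6c and F13a1, Saa3 went from 1574 to 595 CPM (−1.40, −1.44 to −1.36). In the smaller one, led by the MHC class II gene H2-Aa, it went from 459 to 940 CPM (1.03, 0.93 to 1.14), and without the highest cell of each library from 342 to 824 CPM (1.27). The share of NP classical monocytes in the smaller cluster was larger, with 422 of 1128 cells against 133 of 720. Cd74, H2-Ab1 and H2-Eb1 were also among the top genes of the smaller cluster, and whether it held dendritic cells was not tested. Across all classical monocytes, 40.8% of saline and 21.6% of NP cells had a Saa3 UMI after thinning, with a mean of 3.48 and 3.09 per 1000 UMIs in these cells.

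S100a4, linked to cell motility and also known as a fibroblast marker, was a monocyte gene here. Classical monocytes held 80.0% of all its UMIs in saline cells and 78.3% in NP cells. Their S100a4 level was 2192 CPM in saline and 2166 in NP (−0.02, −0.04 to 0.01), and 81.3% and 80.1% of the cells had a UMI after thinning. Non-classical monocytes were at 1118 and 1020 CPM, interstitial macrophages at 1078 and 848, T cells at 631 and 770 and NK cells at 332 and 582. Fibroblasts had 17.2 and 103 CPM, from 9 and 84 UMIs. Mature neutrophils had 5.2 and 8.6 CPM although S100a4 was at 489 and 766 CPM in free RNA. In free RNA, S100a4 was higher in the NP library (0.65, 0.57 to 0.73), as was S100a10 (0.36), whereas the 6 genes found in neutrophils were lower.

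S100a10, the partner of annexin A2, was also near 0 in neutrophils, at 4.4 and 5.7 CPM in mature cells. Its highest levels were in saline NK cells (1538 CPM, with 1326 in NP) and in NP basophils (1682 CPM, with 1131 in saline), and it was lower in alveolar macrophages (784 and 646), classical monocytes (789 and 653) and T cells (718 and 965). Endothelial cells held 281 and 340 CPM. S100a6 and S100a11 were shared more widely. S100a6 was at 11231 and 10333 CPM in mature neutrophils, 3964 and 3324 in classical monocytes and 2532 and 1770 in fibroblasts. S100a11 was at 6789 and 6455 CPM in mature neutrophils and at 1417 and 1285 CPM in alveolar macrophages.

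In endothelial cells, 3 of the 6 genes with at least 200 UMIs were at least 2-fold lower in the NP library, where 0.517% of 4450 genes were, and none was at least 2-fold higher (1.08%). These were S100a8 (4285 and 1329 CPM, −1.69), S100a9 (6110 and 1861, −1.71) and S100a6 (547 and 263, −1.06). The summed neutrophil markers fell with them, from 1583 to 516 CPM. Without 7 of 267 saline and 5 of 967 NP cells that carried neutrophil genes, the ratios were −0.31 (−0.41 to −0.20), −0.13 (−0.22 to −0.04) and 0.38 (0.14 to 0.62). None of the 3 was then 2-fold lower, and S100a6 changed sign. Lrg1 behaved differently there. It was at 482 and 336 CPM (−0.52, −0.66 to −0.38), and 418 and 322 CPM without those cells, which was 37.3% and 44.4% of its free RNA level against 1.90% and 2.18% in B cells. After thinning, 22.7% of saline and 15.2% of NP endothelial cells had an Lrg1 UMI, against 1.91% and 1.68% of B cells.

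Interstitial macrophages, led by Retnla, C1qa and the MHC class II genes H2-Eb1 and H2-Aa, were few, with 65 saline and 85 NP cells. Their cluster had a marker score of 2.8 for this class, and conventional dendritic cells came second at 2.0. Of the 8 genes, 4 were at least 2-fold higher in the NP library, where 2.44% of 1478 genes were, and none was at least 2-fold lower (0.406%). S100a8 went from 2061 to 12807 CPM (2.64), S100a9 from 2789 to 13090 (2.23), Saa3 from 447 to 1637 (1.87) and Lrg1 from 113 to 254 (1.17). Few cells carried these UMIs. One NP cell held 7529 of 16604 S100a8 UMIs, and without 2 saline and 3 NP cells with neutrophil genes S100a8 was at 610 and 1058 CPM (0.79, 0.65 to 0.94), S100a9 at 1259 and 1270 (0.01, −0.10 to 0.13) and Lrg1 at 85 and 106 (0.31, −0.12 to 0.74). Saa3 was at 359 and 1782 CPM (2.31, 2.14 to 2.49) without those cells, which is 459% of its free RNA level in the NP library. That free RNA level was itself low, at 388 CPM, against 1497 CPM in saline, where the macrophage level lay below it. Yet 12 of 65 saline and 16 of 85 NP cells had any Saa3 UMI, and 1 cell in each library held 224 of 407 and 1072 of 2122 Saa3 UMIs. Without that cell, Saa3 was at 206 and 827 CPM (2.01, 1.78 to 2.24), so the ratio kept its direction on a small number of cells. When cells were classed one by one by their marker score, the Saa3 ratio was −0.03, S100a9 −0.30 and Lrg1 −0.50, so the higher levels were lost. Only 14 processing alternatives gave ratios for this class, against 17 for classical monocytes. The summed neutrophil markers of the class went from 1199 to 1849 CPM, and their part in the S100a8, S100a9 and Lrg1 differences beyond the cells set aside was not tested.

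The genes most like each of the 8 were sought among 11828 genes with at least 200 UMIs, by Pearson correlation of log2(CPM + 1) over 32 levels (16 classes in 2 libraries that share free RNA). S100a8 and S100a9 were each other's nearest gene (0.99), followed for both by Wfdc21 and Mmp9. Lrg1 was nearest to S100a9 (0.90), S100a8 and Wfdc21. S100a4 was nearest to Arl5c (0.88), Ms4a4c and Pou2f2, S100a11 to Anxa1 (0.91), Glrx and Cd33, S100a6 to Cdkn2d (0.80), Gadd45a and Sorl1, and S100a10 to Eef1d (0.91), Ruvbl1 and Rrp9. Saa3 had no close neighbor, the highest value being 0.68 for Pla2g7, followed by Gm5150 and Gm50022.

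A list of 41 related genes covered other S100 and serum amyloid A genes, receptors, binding partners and regulators. In neutrophils, 29 had at least 200 UMIs, and 1 was at least 2-fold lower and none higher (list median −0.01), where 0.634% of all genes were lower and 1.81% higher. That gene was Scarb1, a receptor for serum amyloid A and lipoproteins, at 9.90 and 4.03 CPM (−1.30). In monocytes 3 of 29 were at least 2-fold higher, against 1.67% of all genes, and none was lower, against 0.462% (list median −0.05). These were Fpr2, the formyl peptide receptor that also binds serum amyloid A, at 40.7 and 118 CPM (1.53), the scavenger receptor Cd36 at 10.0 and 24.5 (1.29), and the TGF-beta co-receptor Eng at 4.37 and 8.83 (1.01). Cd36 and Eng were low in both libraries. Non-classical cells were 101 of 821 saline and 404 of 1532 NP monocytes. The part of this mix and of free RNA in the 3 ratios was not tested. In endothelial cells 1 of 24 was at least 2-fold lower, the neutrophil gene Csf3r (103 and 50.9 CPM, −1.01), against 0.517% of all genes, and none was higher, against 1.08%. Calprotectin receptor genes Tlr4 and Ly96 were at 26.6 and 30.7 CPM and at 27.7 and 28.2 CPM in neutrophils. Saa1 had 161 saline and 8 NP UMIs in neutrophils, at 3.35 and 0.333 CPM, and was too low for the 200 UMI limit. Cebpb, a regulator of acute-phase genes, was at 3423 and 4031 CPM (0.24) and Csf3r at 1137 and 1137 CPM in neutrophils.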

How the data were processed

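Libraries were made with the 10x Genomics platform from pooled lungs and aligned by the authors with Cell Ranger (version 6.0 and build mm10 in the submitters' processing notes). The deposited counts are raw UMI counts of every barcode, 91168129 UMIs in the saline and 90081747 in the NP library. Cells (500 to 5000 genes, under 7.5% mitochondrial UMIs) were scaled to 10000 UMIs and log transformed. The 2000 most variable genes, without the 8 genes, gave 30 components, 20 neighbors and Leiden clusters at resolution 1. Clusters were named by marker score, and were left unnamed if at least 2 of the top 10 genes marked another class or if the median UMI count was more than 3-fold below the library's. The UMI limit left out a low-UMI endothelial-type cluster with 1.55% of saline and 5.10% of NP cells, and a cluster scored as classical monocyte with 42 saline and 95 NP cells (median UMIs 18080.5 and 1744), which enters no monocyte value. The authors' own cell labels were not used here. Doublets were kept.

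Ratios used pooled CPM, with counts under 3 set to 3 and exact binomial intervals (Poisson for levels, Clopper-Pearson for shares). A gene was called past 2-fold if it had 200 UMIs in the class. Named genes were the 8 genes in every class with 50 cells, the 3 genes most like each, and list genes past 2-fold in neutrophils, monocytes or endothelial cells. Other genes in the text were chosen after their values were seen. The 8 genes, the 41-gene list and the rules were chosen with earlier results of these data known. Promoters came from RefSeq (GRCm38.p6), positions from GENCODE vM21. On simulated counts, in which 200 genes of 11097 in neutrophils were changed, 95.7% of intervals held the true ratio. These were Poisson counts drawn from the pooled profile of the class. They check the calculation only, and cannot show how the intervals hold where UMIs gather in few cells. Alternatives covered filters, doublets, clustering, scaling, free RNA and thinning. Clustering and doublet scores used scanpy 1.11.5 (Scrublet), leidenalg 0.10.2, igraph 0.11.9, anndata 0.12.19 and scikit-learn 1.9.0, and intervals and tables scipy 1.17.1, pandas 2.3.3 and numpy 2.4.6 under Python 3.11.15, with matplotlib 3.10.9 for plots.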

Additional observations from a re-analysis of the deposited data

Results flagged for a closer look

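For S100a8, S100a9, Saa3 and Lrg1 the ratio of NP to saline went 2-fold or more in opposite directions in different cell classes. The share of all genes that did so was not determined, so this is not given as a trait of these genes. With 1 library per group these differences between classes were not tested. S100a8 was higher in interstitial macrophages (2.64) and lower in basophils (−1.95). Without cells that carried neutrophil genes these ratios were 0.79 and −1.85, and summed neutrophil markers in basophils went from 6280 to 4244 CPM. NP basophils were above NP classical monocytes in the markers (1870 CPM) but below them in S100a8 (1656 against 5082 CPM). Whether basophils themselves express any of the 17 marker genes, which include Hdc, was not tested. S100a9 was higher in interstitial macrophages (2.23) and lower in plasmacytoid dendritic cells (−2.53). Without those cells (1 of 18 saline and 0 of 34 NP plasmacytoid dendritic cells) the ratios were 0.01 and −0.68, and the markers of plasmacytoid dendritic cells went from 1355 to 829 CPM, so neither side was then past 2-fold. S100a9 in free RNA went from 98090 to 53950 CPM. Saa3 was higher in interstitial macrophages (1.87) and lower in T cells (−3.10). Without those cells the ratios were 2.31 and −1.72, while the markers of T cells went from 2507 to 1378 CPM, and after thinning only 22 saline and 3 NP T cells had a Saa3 UMI. Saa3 in free RNA was lower in NP as well, at 1497 and 388 CPM. Lrg1 was higher in interstitial macrophages (1.17) and lower in classical monocytes (−1.11). Without those cells the ratios were 0.31 (−0.12 to 0.74) and −1.12. With classes from each cell's marker score, the interstitial macrophage ratios of S100a9, Saa3 and Lrg1 were −0.297, −0.031 and −0.498.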

How the results depend on the processing

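In neutrophils the median log2 ratio of the 8 genes was −0.003 with classes from each cell's marker score, 0.023 with equal weight per cell, 0.036 with CPM of all other genes, 0.141 relative to the all-gene median and 0.119 with the saline mix of clusters, and by marker score 1 gene was at least 2-fold higher. The S100a8 ratio stayed above 0: 0.122 with a minimum of 200 genes, 0.117 without doublets, 0.122 without doublets at a shared score threshold, 0.116 at resolution 0.5, 0.11 by marker score, 0.08 with equal weight per cell, 0.146 with CPM of other genes, 0.252 relative to the all-gene median, 0.124 with free RNA subtracted and 0.249 with the saline mix. In monocytes the median was −0.596 and −0.594 with a minimum of 200 and 800 genes, −0.571 at a 5% mitochondrial limit and at resolution 2, −0.481 with 3000 variable genes, −0.551 with the 8 genes among the variable genes, −0.734 and −0.755 without doublets (own and shared threshold), −0.737 by marker score, −0.814 with equal weight and −0.585 without cells carrying neutrophil genes. The number of genes at least 2-fold lower there was 1 at the 5% limit, at resolution 2 and with the 8 genes among the variable genes, and 4 without doublets (both thresholds), by marker score, with equal weight and at a 1.5-fold limit.

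Ratios past 2-fold turned direction as follows. Without cells carrying neutrophil genes, S100a6 was at 0.376 in endothelial cells and 0.201 in basophils, S100a8 at −1.239 in fibroblasts and 0.864 in aerocytes, and S100a9 at 0.86 in aerocytes. Without the highest cell, aerocyte S100a8 and S100a9 were at 0.852 and 0.932. With free RNA subtracted, endothelial S100a6 was at 1.748. With a minimum of 200 genes, B cell S100a9 was at 0.158, and at the 5% mitochondrial limit NK cell Saa3 was at 0.479. Without doublets, fibroblast S100a8 was at −0.49 (shared threshold −0.48), and with the shared threshold fibroblast Saa3 was at 0.189. By marker score, S100a9, Saa3 and Lrg1 in interstitial macrophages were at −0.297, −0.031 and −0.498. Smaller ratios also turned. S100a8 in NK cells (0.709) kept its sign in 13 of 17 alternatives, from −0.766 to 2.829, and in neutrophils Lrg1 (−0.017) kept it in 13, S100a6 in 15 and S100a11 in 16 of 17. The causes were not tested. The shared doublet threshold and the leaving out of cells were chosen after seeing the data. Scrublet called 1 of 8662 saline cells (0.0115%), so its own threshold did not work there.

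No paired analysis was possible because each group was 1 library. Low counts at background level limit S100a4 and S100a10 in neutrophils, and few cells limit interstitial macrophages, basophils and plasmacytoid dendritic cells.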
